A study of Mus musculus with 3 samples.

Results

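The mouse immunoglobulin heavy chain locus (Igh) was described in 3 chromatin immunoprecipitation sequencing (ChIP-seq) libraries as the 1 kb bins of chromosome 12 from 114440001 to 117260000 (mm9). These are 2820 bins, of which 2366 held a read in any library, beside 2285014 such bins over the genome. The rule is one of position and uses no read count, although the locus was picked with earlier results of these data known. Following the same positions, the locus was divided into the 3-prime end with the constant genes (114440001 to 114655000, 215 bins), the J-enhancer-Cmu area (114655001 to 114675000, 20 bins), the D area (114675001 to 114725000, 50 bins) and the V area (114725001 to 117260000, 2535 bins).

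All 3 libraries came from 1 kind of cell, pro-B cells transformed by Abelson virus that the labels call RAG2-/- and whose strain is given as C57BL/7. Pro-B cells are early cells of the B lineage, and the viral oncogene keeps them growing in culture, so that the cells are a transformed line and not primary bone marrow. The antibodies were directed at H3R2me2s (histone H3 with symmetric dimethylation of arginine 2), at H3R2me2sK4me3 (arginine 2 dimethylated as before and lysine 4 trimethylated on 1 tail, called the combined mark here) and at H3K4me3, with 1 library each. The antibodies for H3R2me2s and for the combined mark were made in the submitting laboratory, and that for H3K4me3 was commercial. No input library was used here, and no calibration between the antibodies is given in the sources used here, so a level is comparable within a library and a ratio between libraries is relative.

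The Igh locus encodes the heavy chain of antibodies and is assembled from V, D and J segments by the RAG recombinase. In pro-B cells D-to-J joining precedes V-to-DJ joining. Before any joining, the J segments, the intronic enhancer between them and the Cmu exons form a recombination centre, where transcription and H3K4me3 are high and where RAG proteins gather. RAG2, the recombinase subunit that these cells lack, reads H3K4me3 through its PHD finger, and binding of that finger to tails that also carry methylated arginine 2 has been described. Downstream of Cmu (gene Ighm) the constant genes lie in the order Ighd, Ighg3, Ighg1, Ighg2b, Ighg2c, Ighe and Igha in the RefSeq table for GRCm38. That table lists 8 constant genes, 4 J segments, 10 D segments and 132 V segments at Igh, besides 10 D and 63 V pseudogenes. It is of another build than the reads, so no segment was placed on the mm9 positions, and regions are given by position and area only.

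The H3K4me3 library held 13898471 reads, that of H3R2me2s 6923765 and that of the combined mark 7128852. Levels are reads per bin as multiples of background, the mean of genomic bins over 5 kb away from every enriched bin. Background was 2.35 reads per bin for H3R2me2s, with 1.86 in the combined-mark library and 2.98 in that of H3K4me3. A bin was called enriched at 15, 16 or 25 reads in these libraries, and intervals are exact 95% intervals that cover counting error only. A region of chromosome 2, 101481001 to 101491000, held 3403 H3R2me2s and 3328 combined-mark reads but 432 H3K4me3 reads, or 145, 179 and 14.5 times background. Its net H3R2me2s per H3K4me3 was 10.6, and in this region the H3K4me3 library stood apart from the others. Whether the preparations differed in anything besides the antibody was not tested. No cell type marker could be placed on this build, so the cell type was taken from the labels.

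The J-enhancer-Cmu area stood far above the rest of the locus in all 3 libraries. It held 1319 reads of H3R2me2s, or 28.0 times background (26.5 to 29.6). The combined mark held 3082 reads there, at 82.8 times background (79.9 to 85.8), and H3K4me3 held 4521 reads, at 75.9 times background (73.7 to 78.1). The other areas lay between 1.21 and 3.09 times background. Enriched bins of the area numbered 7 of 20 in the H3R2me2s library (35%), 9 in that of the combined mark (45%) and 10 in that of H3K4me3 (50%). Over the genome 1.23%, 1.45% and 2.45% of bins were enriched, in that order. The enriched bins joined into 1 region of 12 kb at 114658001 to 114670000, which makes up 0.426% of the length of the locus. It held 14.9% of the H3R2me2s reads of the locus (14.1 to 15.6), 32.8% of the combined-mark reads (31.9 to 33.8) and 25% of the H3K4me3 reads (24.4 to 25.6).

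**Figure D1:**
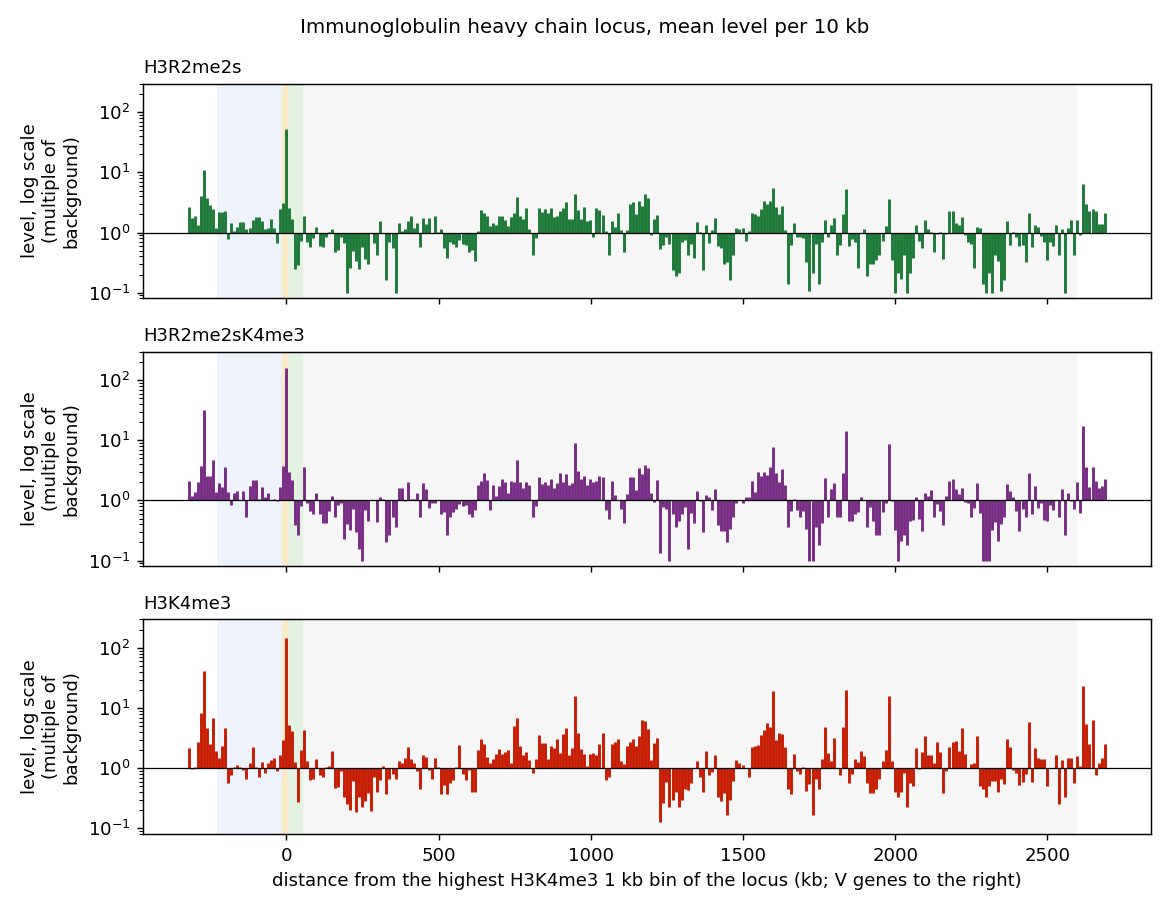
Mean level per 10 kb along the locus and 100 kb on either side, as multiples of background on a log scale, against distance in kb from the highest H3K4me3 bin; shading marks the 3-prime end and constant genes (blue), the J-enhancer-Cmu area (orange), the D area (green) and the V area (grey), and levels under 0.1 are drawn at 0.1. The highest column in every library is at the J-enhancer-Cmu area, and separate peaks rise in the middle and far parts of the V area.

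**Figure D2:**
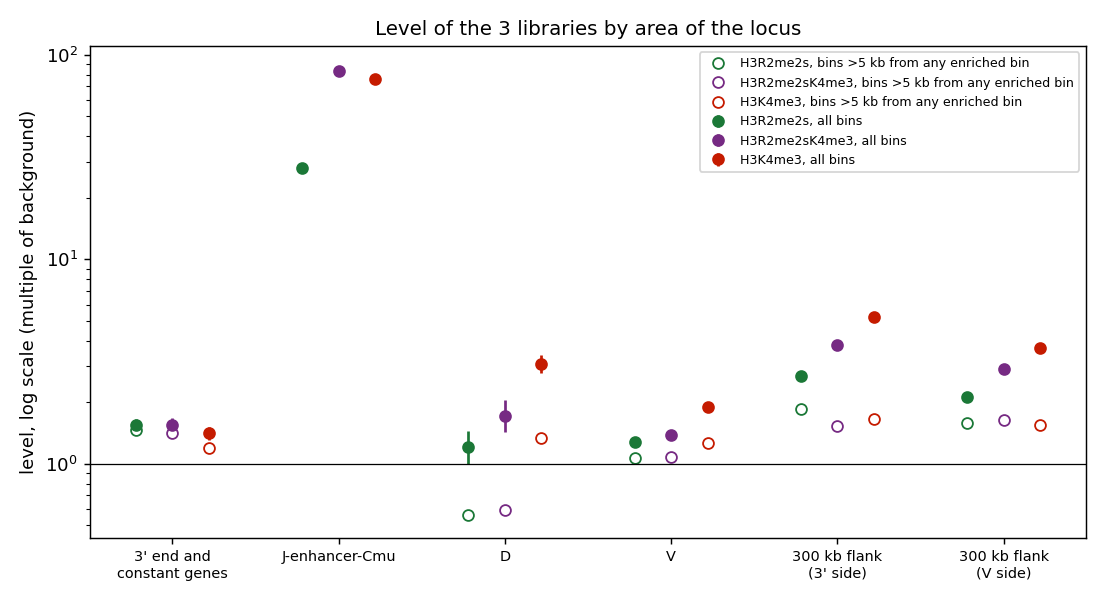
Level of each library in the 4 areas and in the 300 kb on either side of the locus, on a log scale; filled points are all bins with a read, with 95% Poisson intervals, and open points are bins over 5 kb away from every enriched bin. The J-enhancer-Cmu area lies between 28.0 and 82.8 times background, and the other 3 areas lie between 1.21 and 3.09.

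Among the strongest chromatin of the genome, this region ranked near the top. Its single highest bin was the same in all 3 libraries, 114666001 to 114667000. With 313 H3R2me2s reads (133 times background) it ranked 5 of 2285014 bins. With 688 reads of the combined mark (370 times) it also ranked 5, and with 964 reads of H3K4me3 (324 times) it ranked 4. The stretch called for H3K4me3 was 10 kb wide, from 114660001 to 114670000, and was set beside the other regions of the genome called for H3K4me3. By level it ranked 2 of 18461 regions for H3R2me2s at 52.7 times background (49.8 to 55.7). It ranked 1 for the combined mark at 161 times (156 to 167) and 3 for H3K4me3 at 147 times (143 to 152). These ranks hold among stretches cut by the H3K4me3 call. The chromosome 2 region given above, joined from bins called in any library, stood higher for the combined mark, at 179 times background.

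Most of the signal lay in 6 consecutive bins, 114663001 to 114669000, which were the bins with at least 1/5 of the H3K4me3 reads of the highest one. H3R2me2s counts in these bins were 95, 250, 195, 313, 238 and 110 reads, from the constant gene side to the D side. The combined mark had 233, 631, 420, 688, 638 and 301 reads in the same bins, and H3K4me3 had 297, 916, 713, 964, 779 and 490. Each library thus had its highest value in the fourth bin, a lower value in the third and its lowest values in the outer ones. The first bin includes part of a stretch without any read, and the third holds a dip, both given below. This core stood at 85.0 (80.3 to 90) times background for H3R2me2s, 261 times for the combined mark (251 to 270) and 233 times for H3K4me3 (226 to 240).

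Beyond the core all 3 marks were far lower, and the ratios of both arginine marks to H3K4me3 were lower in the pooled shoulders. The 3 bins on the constant gene side, 114660001 to 114663000, had 26 H3R2me2s reads, 67 combined-mark reads and 162 H3K4me3 reads. Their levels were 3.68 (2.4 to 5.39), 12 (9.30 to 15.2) and 18.1 (15.4 to 21.1) times background. The first bin on the D side, 114669001 to 114670000, had 13, 28 and 62 reads, or 5.52, 15.0 and 20.8 times background. Over both shoulders the net level of H3R2me2s, that is the level with background taken off, was 0.176 of the net level of H3K4me3 (0.107 to 0.269). In the core that ratio was 0.363 (0.340 to 0.387). The combined mark per H3K4me3 was 0.661 in the shoulders (0.503 to 0.858) and 1.12 in the core (1.07 to 1.18). Neither pair of intervals overlapped, so relative to H3K4me3 both arginine marks were lower in the pooled shoulders than in the core, beyond counting error. On the D side alone the ratios were 0.228 (0.0940 to 0.458) and 0.709 (0.421 to 1.16), and both intervals overlapped those of the core. For H3R2me2s per combined mark, the shoulders had 0.267 (0.158 to 0.425) and the core 0.324 (0.302 to 0.346), and these intervals did overlap. Core and shoulders were set from H3K4me3 reads alone, after the values had been seen. Bins below the H3K4me3 limit were left out of the shoulders, which can favour low ratios to H3K4me3 there. The intervals do not cover this choice.

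At a step of 100 bp the 3 libraries had nearly the same outline. Over the 60 steps of the core H3R2me2s had a median of 23.0 reads, the combined mark one of 55.5 and H3K4me3 one of 78. Spearman's rho over these steps was 0.833 between H3R2me2s and H3K4me3, 0.894 between the combined mark and H3K4me3 and 0.874 between H3R2me2s and the combined mark. The steps share sequence, mappability and position, and rho is a description only. The single highest step was 114665901 to 114666000 for both H3R2me2s, with 48 reads, and H3K4me3, with 172 reads. The combined mark had 86 reads there and its highest step, with 90 reads, at 114664501 to 114664600.

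The profile was broken by a dip and by an empty stretch that all libraries shared. In the dip, at 114665601 to 114665900, H3R2me2s had 11 reads, the combined mark 28 and H3K4me3 47. The 300 bp just before it held 64, 136 and 237 reads, and the 300 bp just after it held 109, 215 and 396. With reads left at their mapped position the dip held 24, 57 and 107 reads, beside 71, 137 and 246 before it and 94, 186 and 338 after it. The counts in the dip were lower than on both sides with either placement, in all 3 libraries. As the dip was picked from these same profiles as a low stretch, this is a description only. An empty stretch of 800 bp, at 114662601 to 114663400, held no read of any library and spanned the border between the constant gene shoulder and the core. Whether reads can be mapped uniquely in the dip and in the empty stretch was not tested, as no mm9 genome was used.

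**Figure D3:**
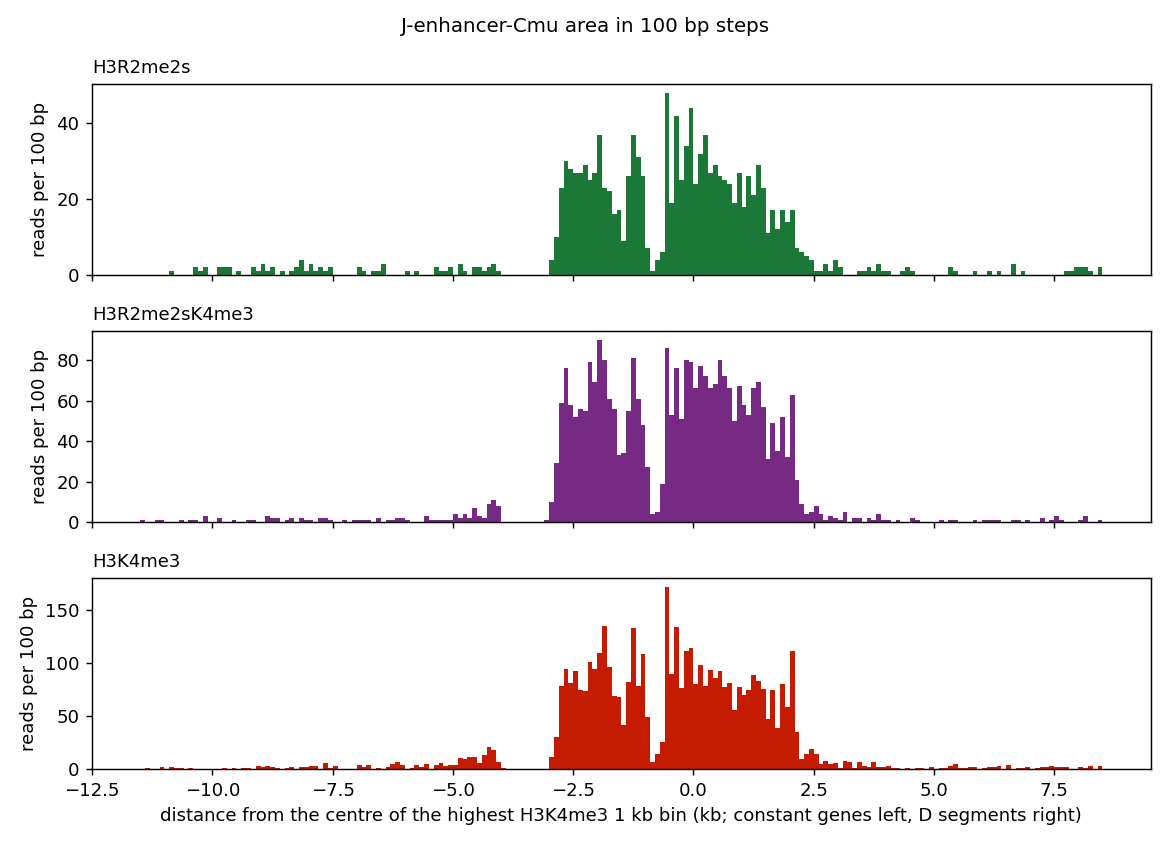
Reads per 100 bp over the 20 kb of the J-enhancer-Cmu area in each library, against distance in kb from the centre of the highest H3K4me3 bin (linear axes that differ between libraries). The 3 outlines rise and fall together, with the dip of 11, 28 and 47 reads just left of the centre and the 800 bp stretch without reads on the constant gene side.

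Relative to H3K4me3, both arginine marks were high at this region, also beside the strongest other H3K4me3 regions. The net level of H3R2me2s per net H3K4me3 was 0.353 (0.331 to 0.377) over the 10 kb. In the other 18460 regions called for H3K4me3 the ratio was higher in 1837. The combined mark per H3K4me3 was 1.10 (1.05 to 1.15), and 21 other regions had a higher ratio. Since this ratio changes with the strength of H3K4me3, the 184 other regions with the highest H3K4me3 levels, from 84.6 times background upward, were taken by themselves. Among them the median was 0.244 for H3R2me2s per H3K4me3, with a highest value of 0.352. For the combined mark per H3K4me3 the median was 0.773 and the highest value 1.00. None of the 184 was above the locus in either ratio, although the highest H3R2me2s ratio lay inside the interval of the locus. H3R2me2s per combined mark was at 0.322 (0.301 to 0.344), close to the median of 0.314 among the 184, of which 76 were higher. Beside these 184 regions the locus was thus highest in combined mark per H3K4me3 and at the upper edge in H3R2me2s per H3K4me3. It was in the middle for the ratio of the arginine marks to each other. At rank 3 by H3K4me3 level the locus was stronger than nearly all of the 184, so the comparison is not matched for strength.

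Repeated reads bear on these ratios. In the core, 25.5% of H3K4me3 reads repeated a position and strand, against 10.8% for H3R2me2s and 9.5% for the combined mark. Even placement of as many reads would give 15.5%, 4.83% and 11.2%. With 1 read per position and strand the ratio of the 10 kb region was 0.433 for H3R2me2s per H3K4me3 and 1.32 for the combined mark per H3K4me3. Again none of the 184 strongest regions was higher in either. Since even placement alone gives most repeats for H3K4me3, this setting can by itself raise both ratios, and more so where reads are dense. It is thus no independent check of the ranks. Over all other regions, 1004 were then higher in the first ratio and 9 in the second, in place of 1837 and 21. Reads of both strands were about equally frequent in the 12 kb region, with 48.9%, 50.2% and 51.7% on the plus strand.

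**Figure D4:**
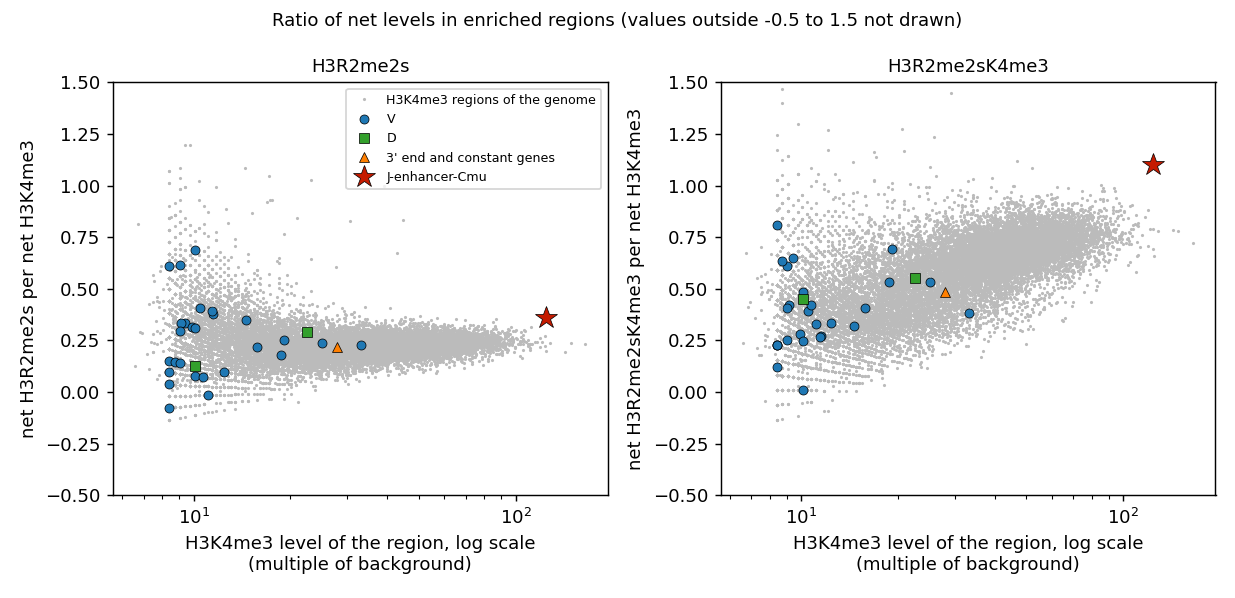
Net H3R2me2s (left) and net combined mark (right) per net H3K4me3, against the H3K4me3 level of the region on a log scale, for the H3K4me3 regions of the genome (grey points) and for the regions of the locus that held an H3K4me3-enriched bin (coloured symbols). The star of the J-enhancer-Cmu area, at 0.356 and 1.10 over its 12 kb, lies at the upper edge of the regions with strong H3K4me3. The V regions lie at much lower H3K4me3 levels.

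The D area, named for the segments that join to J first, carried H3K4me3 at both of its ends and little of any mark between them. Its level was 1.21 (0.998 to 1.45) times background for H3R2me2s, 1.72 (1.43 to 2.04) for the combined mark and 3.09 (2.78 to 3.42) for H3K4me3. Its bins enriched for H3R2me2s, the combined mark and H3K4me3 numbered 1, 2 and 3 of 40 bins with a read. These are 2.5% (0.0633 to 13.2), 5% (0.611 to 16.9) and 7.5% (1.57 to 20.4), and each interval holds the genomic share. In windows of 10 kb from the J side to the V side, H3K4me3 stood at 3.98, 3.28, 0.783, 0.504 and 5.74 times background. The combined mark went through 1.61, 1.73, 0.179, 0.470 and 3.71, and H3R2me2s through 1.64, 1.18, 0.142, 0.425 and 2.21. The third window held 2 reads of either arginine mark and 14 of H3K4me3, in 6 bins with a read. In every library the windows in the middle were thus the lowest and the window next to the V area the highest.

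The stretches of the D area that reached the calling limits numbered 3. The strongest was the bin at 114723001 to 114724000, with 17 H3R2me2s reads (7.22 times background), 24 combined-mark reads (12.9 times) and 67 H3K4me3 reads (22.5 times), and it was enriched in all 3 libraries. A region of 2 kb at 114685001 to 114687000 had 10, 19 and 60 reads and was enriched for H3K4me3 alone, at 10.1 times background (7.69 to 13). The bin at 114720001 to 114721000 had 11, 19 and 22 reads and was called for the combined mark but not for H3K4me3. Its H3K4me3 level was 7.39 times background (4.63 to 11.2), below the limit of 25 reads. In the D bins over 5 kb away from every enriched bin, H3K4me3 was at 1.33 times background (1.04 to 1.66), H3R2me2s at 0.559 (0.362 to 0.825) and the combined mark at 0.594 (0.368 to 0.908). Of the 50 D bins, 10 had no read in any library, or 20%, beside 11.5% of bins between the outermost reads of all chromosomes. The part of such bins in the low levels here was not tested.

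The 3-prime end and the constant genes had slightly raised levels and 1 enriched bin. H3R2me2s stood at 1.54 times background (1.43 to 1.66), the combined mark at 1.55 (1.42 to 1.68) and H3K4me3 at 1.41 (1.31 to 1.51). The enriched bin, 114460001 to 114461000, lay near the outer border and was called in all 3 libraries, though for H3R2me2s neither at 8 times the mean nor with shifted bin starts. It had 16 H3R2me2s reads, 26 combined-mark reads and 83 H3K4me3 reads, at 6.80, 14.0 and 27.9 times background. At 1 of 197 bins with a read (0.508%, 0.0129 to 2.80) the share enriched was not distinguishable from that of the genome in any library. Without bins near an enriched one, the levels were 1.47, 1.42 and 1.2. No other bin of this area was enriched, which does not show that weak signal was absent there. The highest 10 kb window of H3R2me2s, 114640001 to 114650000 at 2.46 times background, lay next to the last window before the J-enhancer-Cmu area.

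The V area carried scattered regions of H3K4me3, few of which were called for the arginine marks. Its mean level was 1.28 (1.25 to 1.31) times background for H3R2me2s, 1.39 (1.35 to 1.42) for the combined mark and 1.9 (1.87 to 1.94) for H3K4me3. Of 2109 V bins with a read, 61 were enriched for H3K4me3 (2.89%, 2.22 to 3.70), close to the share in the genome. For the combined mark 14 were enriched (0.664%, 0.363 to 1.11), which is below the 1.45% of the genome. For H3R2me2s 18 were enriched (0.853%, 0.507 to 1.35), and that interval holds the genomic 1.23%. Of the 61 H3K4me3 bins, 12 were also enriched for H3R2me2s (19.7%, 10.6 to 31.8), and the combined mark was called in 12 of them as well. Over the genome 46.8% and 58.6% of H3K4me3 bins were also called for these marks. The H3K4me3 bins of the V area were weak, with a median of 11.1 times background against 21.8 over the genome. Within them the mean level of the combined mark was 8.26 times background. Its net ratio to H3K4me3 was 0.461 (0.424 to 0.5), beside 0.657 pooled over all H3K4me3 bins of the genome. For H3R2me2s that ratio was 0.237 (0.213 to 0.262), beside 0.232. Taken singly, the H3K4me3 regions of the genome had a median combined-mark ratio of 0.559, and 36.2% of them were below 0.461. These comparisons were not matched for H3K4me3 strength.

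Along the V area the level was patchy, and it was lowest at the end next to the D segments. The area was divided into 5 stretches of 507 kb. In the first, next to the D side, no bin was enriched in any library. Levels there were 0.873 (0.816 to 0.933) for H3R2me2s, 0.823 (0.761 to 0.888) for the combined mark and 0.868 (0.818 to 0.921) for H3K4me3, all below background. In the following 4 stretches H3K4me3 stood at 2.42, 1.74, 2.85 and 1.68 times background. The combined mark stood at 1.99, 1.31, 1.70 and 1.05, and H3R2me2s at 1.78, 1.39, 1.26 and 0.987. H3K4me3 was thus highest in the fourth stretch, while both arginine marks were highest in the second.

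In windows of 100 kb the lowest and the highest were the same in all libraries. The lowest window was 114825001 to 114925000, where H3R2me2s stood at 0.425 times background, the combined mark at 0.463 and H3K4me3 at 0.387, and 28 of its bins had no read. The highest was 116225001 to 116325000, at 2.62, 2.94 and 5.06 times background, with 5 bins without a read. H3K4me3 lay above background, by its interval, in 16 of 26 windows and below it in 6. The combined mark lay above in 14 and below in 9, and H3R2me2s above in 11 and below in 8. Over the 25 full windows Spearman's rho was 0.872 between H3R2me2s and H3K4me3, 0.934 between the combined mark and H3K4me3 and 0.937 between the arginine marks. These windows share the sequence that can be mapped, so rho is given as a description. In bins over 5 kb away from every enriched bin, rho was 0.912, 0.918 and 0.969, so the order of the windows did not rest on the called regions alone.

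**Figure D5:**
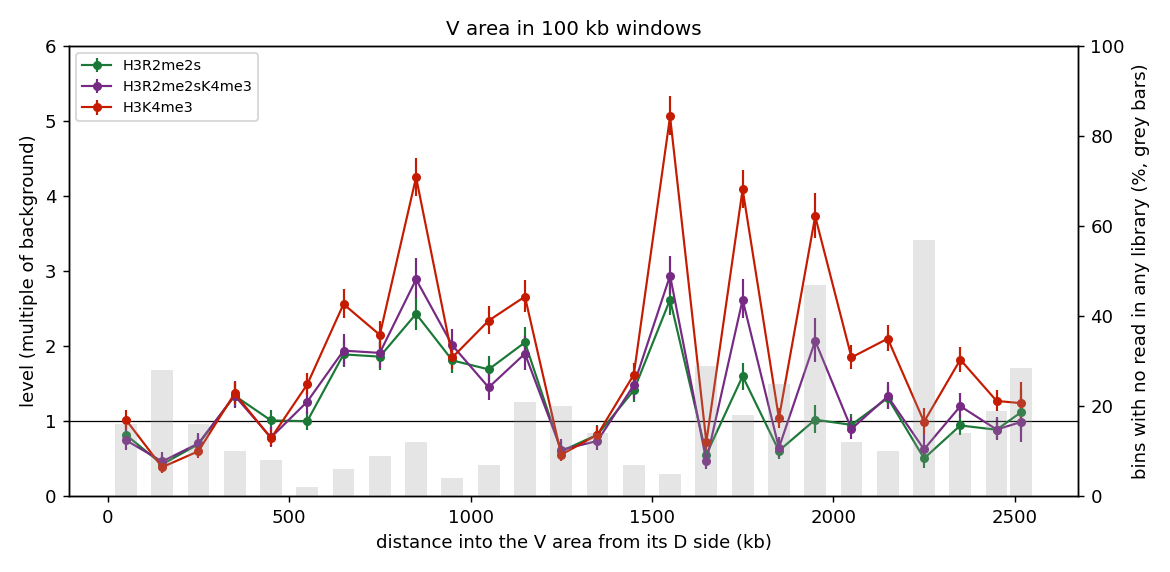
Level of each library in windows of 100 kb along the V area, with 95% Poisson intervals, against distance in kb from its D side, and the percentage of bins without a read in any library (grey bars, right axis; the last window is 35 kb). All 3 libraries are lowest in the second window, between 0.387 and 0.463 times background, and highest in the window at 116225001 to 116325000.

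The enriched bins of the V area formed 32 regions with a median width of 1 kb, of which 27 held an H3K4me3 bin, 12 an H3R2me2s bin and 6 a combined-mark bin. In 18 of the 27 regions with H3K4me3 (66.7%, 46.0 to 83.5) it was the only mark called. Elsewhere in the genome that was so in 26.2% of 18379 regions, and in 41.9% (41.0 to 42.8) of the 11399 whose H3K4me3 level lay in the range of the V regions, 8.39 to 33.1 times background. Within that range the median level was 15.1 elsewhere and 10.1 in the V area. The V region nearest to the enriched J-enhancer-Cmu region lay 562 kb from the end of that region, at 115232001 to 115233000. It had 1 H3R2me2s read, 5 combined-mark reads and 25 H3K4me3 reads.

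The 5 regions with the most H3K4me3 reads per kb were described singly. The strongest, 116261001 to 116266000, had 97 H3R2me2s reads, 124 combined-mark reads and 493 H3K4me3 reads. These are 8.24 (6.68 to 10.1), 13.3 (11.1 to 15.9) and 33.1 (30.2 to 36.2) times background. All 3 marks were called there, H3K4me3 in each of its 5 bins. The region at 115615001 to 115621000 had 95, 155 and 448 reads, at 6.72, 13.9 and 25.1 times background. It too was called in every library, in all 6 of its bins for H3K4me3. A region of 9 kb at 116498001 to 116507000 had 117, 227 and 511 reads, at 5.52, 13.6 and 19.1 times background. It held the highest V bin of every library, 116501001 to 116502000, with 50 H3R2me2s reads (21.2 times background), 121 combined-mark reads (65.0 times) and 211 H3K4me3 reads (70.8 times). Next came 116641001 to 116649000, with 78, 155 and 446 reads, at 4.14, 10.4 and 18.7 times background. The fifth was the single bin 116431001 to 116432000, with 10, 13 and 47 reads, which was enriched for H3K4me3 alone.

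These regions differed in how much combined mark they had per H3K4me3. The net ratio was 0.384 (0.308 to 0.474) at the strongest one and 0.695 (0.584 to 0.823) at 116498001 to 116507000, and these intervals did not overlap. It was 0.535 (0.437 to 0.651) at 115615001 to 115621000 and 0.531 (0.431 to 0.649) at 116641001 to 116649000. For H3R2me2s per H3K4me3 the same regions had 0.226, 0.25, 0.238 and 0.177, with overlapping intervals. In sum the 5 regions had 0.534 of the combined mark (0.485 to 0.587) and 0.224 of H3R2me2s (0.196 to 0.254) per H3K4me3, against 1.10 and 0.353 at the 10 kb J-enhancer-Cmu region. Those intervals did not overlap either, so in both ratios these 5 regions lay below the J-enhancer-Cmu region by more than counting error. The other 27 V regions together had 0.383 of the combined mark (0.329 to 0.444), also below it. Their H3R2me2s ratio of 0.340 (0.293 to 0.392) overlapped that of the J-enhancer-Cmu region. These 27 include the 5 regions called for an arginine mark without H3K4me3, which can raise both pooled ratios. The ones called for H3R2me2s had H3R2me2s ratios of 1.23, 2.05 and 7.91, so the overlap may rest on how regions were picked. A different set is that of the 27 V regions with an H3K4me3 bin, taken singly. Of these, 6 had a higher H3R2me2s ratio than the J-enhancer-Cmu region and 0 a higher combined-mark ratio. The V regions are also much weaker in H3K4me3.

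In the V area 5 regions, each a single bin, were called for an arginine mark without H3K4me3. The bins at 115826001 to 115827000, 115844001 to 115845000 and 116224001 to 116225000 were called for H3R2me2s, with 16, 17 and 15 reads. They had 17, 12 and 5 H3K4me3 reads, or 5.71, 4.03 and 1.68 times background. At 115425001 to 115426000 and 116256001 to 116257000 the combined mark was called with 16 and 17 reads, beside 12 and 21 reads of H3K4me3. All 5 bins were within 2 reads of the calling limit, and 4 of them had H3K4me3 at 4.03 to 7.05 times background, so these calls rest on small counts.

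Away from enriched bins, all 3 libraries stood above genome background in the V area, but lower than on either side of the locus. In the 300 kb before its 3-prime end, bins over 5 kb away from every enriched bin stood at 1.85 (1.72 to 2.00) times background for H3R2me2s, 1.53 (1.40 to 1.68) for the combined mark and 1.65 (1.54 to 1.77) for H3K4me3. In the 300 kb past the V area they stood at 1.59 (1.48 to 1.71), 1.64 (1.51 to 1.77) and 1.54 (1.44 to 1.64). In the V area such bins stood at 1.07 (1.04 to 1.10), 1.08 (1.04 to 1.11) and 1.26 (1.23 to 1.29). The flanks also had larger shares of bins enriched for H3K4me3, 10.2% and 5.86%, than the genome at 2.45%. Bins without any read made up 16.8% of the V area but 2.00% and 3.33% of the flanks. Many V segments are near copies of each other. How the authors placed reads that match several copies is not given in the sources used here. V levels below the flanks, or below background in some stretches, thus cannot be told apart from sequence that cannot be mapped uniquely.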

How the data were processed

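ChIP-seq reads of 3 libraries, 1 per antibody, were used. Each line of the deposited files is 1 mapped 39-base read, and read counts made from them are unscaled raw counts. Per the submitters' processing notes the build was mm9. The aligner and the treatment of repeated reads and sequence are not given in the sources used here.

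Reads were shifted by 75 bp toward their 3-prime end before bins of 1 kb were counted. A bin was enriched at 4 times the library mean or more and at a Poisson upper tail under 1e-06. Enriched bins up to 1 kb apart were merged. Levels use bins with a read in any library. Intervals are exact 95% Poisson, binomial or Clopper-Pearson intervals. Net ratios carry the binomial interval of the reads. They cover counting error alone, since amplified reads carry no molecular identifier. As each antibody had a single library, there was no test between antibodies and no replicate check. The calling rule, the Poisson interval and the binomial interval of a ratio of reads were tested on simulated data. The interval of the net ratios was not.

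Regions were named by rule: in each area all enriched regions up to 5, otherwise the 5 with most H3K4me3 reads per kb and those called for an arginine mark alone, with the highest bin per library and the highest and lowest V windows. The locus, its areas and the calling rule were chosen with earlier results of these data known. The genome regions in the H3K4me3 range of the V regions, the core, the dip and the 5 stretches of the V area were chosen after values were seen. So were the flanks and the 184 strongest regions. Python 3.11.15, numpy 2.4.6, pandas 2.3.3, scipy 1.17.1 and matplotlib 3.10.9 were used. Alternatives were read shift, repeated reads, background, empty bins, the highest bin, calling limit, bin start and depth.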

Additional observations from a re-analysis of the deposited data

How the results depend on the processing

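Of 180 values recomputed under 12 settings, 138 stayed within their interval or, for counts, within 1.5 times, and 42 moved more. No paired analysis was possible because there were no replicates: every antibody has a single library, so leaving one out was not an option. The settings for the ranks of the ratios and for the dip were chosen after seeing the data.

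Thinning to equal depth moved no count of enriched bins by over 1.5 times. V bins called for H3K4me3, the deepest library, still fell from 61 to 46, with 18 for H3R2me2s and 15 for the combined mark. The overlap of calls between libraries was not recomputed at equal depth. Reads left at their mapped position moved no area level, count of enriched bins or ratio beyond these limits. That placement raised the dip to 24, 57 and 107 reads. A doubled shift left 0 D bins called for H3R2me2s. With 1 read per position and strand, J-enhancer-Cmu levels were 76.7 for the combined mark and 58.8 for H3K4me3, and V H3K4me3 was 1.86. The ratios to H3K4me3 rose to 0.442 for H3R2me2s and 1.31 for the combined mark over the 20 kb, from 0.361 and 1.09. Regions with a higher ratio than the locus then numbered 1004 and 9. Loss of the repeats that even placement alone would give can raise these ratios. Chromosome 12 background gave 73.5 for J-enhancer-Cmu H3K4me3, and 1.35 and 1.84 for the combined mark and H3K4me3 in the V area. CPM ratios with no background taken off were 0.586, 1.33 and, between the arginine marks, 0.441.

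Empty bins were also counted in the areas, while background stayed over bins with a read, which by itself lowers the levels. H3R2me2s, the combined mark and H3K4me3 then stood at 1.41, 1.42 and 1.29 in the 3-prime area. They stood at 0.968, 1.38 and 2.47 in the D area, and at 1.06, 1.15 and 1.58 in the V area. Without its highest bin the J-enhancer-Cmu area stood at 22.5, 67.7 and 62.9, 3-prime H3K4me3 at 1.27, and the combined mark and H3K4me3 of the D area at 1.43 and 2.59. At 8 times the mean, 0, 0 and 1 D bins, 6, 7 and 13 V bins and, for H3R2me2s, 0 bins of the 3-prime area were called. At 2 times the mean, 6 D bins were called for H3K4me3. Bins with shifted starts left 0 bins of the 3-prime area called for H3R2me2s and 1 D bin for the combined mark. Weak calls in the 3-prime, D and V areas thus depend on the limit. The causes were not tested.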
